A study of Homo sapiens with 12 samples.

Results

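The 2 drugs of the study were set directly against each other: 3 arrays of MDA-MB-231 cells treated with SAHA against 3 arrays of the same cells treated with pargyline, 6 of the 12 arrays in all. The arrays were chosen by the treatment in their titles. Every gene with a probe set of its own was compared, which gave 11963 genes, each represented by its brightest probe set, judged by the mean over 12 arrays. All groups were the MDA-MB-231 line, an established human breast cancer cell line without estrogen receptor, and every group was treated for 24 h. One group had 5 uM SAHA (suberanilohydroxamic acid, vorinostat) and one had 2.5 mM pargyline. The other two had the vehicle DMSO or both drugs together at those doses. Each group held 3 biological replicates, and the labels do not say whether these came from separate cultures, so a p-value measures only the spread between these arrays. Each drug was given at 1 dose, and the doses differ, so a difference between them is one between these treatments and not between equal amounts. Values are log2 intensities of Affymetrix arrays, and a difference is the SAHA mean minus the pargyline mean on that scale, so that 1 is a 2-fold difference.

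SAHA blocks zinc-dependent histone deacetylases, enzymes that take acetyl groups off histone tails and other proteins. Pargyline is an irreversible inhibitor of the monoamine oxidases, and it can also inhibit LSD1, a related flavin enzyme encoded by KDM1A that takes methyl groups off histone H3. LSD1 works in the CoREST complex beside the deacetylases HDAC1 and HDAC2, so both drugs can act on one corepressor complex. The direct comparison asks which genes read differently under the 2 drugs, whatever either does against the vehicle.

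The arrays were alike in their medians and in their 3' to 5' control differences. Array medians lay between 5.15 and 5.38, and the difference between 3' and 5' actin control probes was 0.84 ± 0.07 (SD, n = 3) with SAHA and 0.80 ± 0.17 with pargyline (exact two-sided permutation p = 0.8). The poly-A RNA spiked into the samples read 9.46, 9.66 and 9.43 with SAHA and 9.22, 8.87 and 8.86 with pargyline. These spikes did not overlap between the groups (difference 0.53, exact permutation p = 0.1, the lowest such a design allows, and 0.3 adjusted over 6 measures), and their part in the results was not tested. The percent of probe sets above 7.06 did not overlap either. It was 43.22, 43.13 and 43.22 with SAHA and 43.38, 43.30 and 43.36 with pargyline (difference -0.16, exact permutation p = 0.1, 0.3 adjusted). All 12 markers of the line measured here, among them VIM, CD44 and AXL, lay in every group above 7.06. That value is the median gene's mean log2 intensity and is called the median level below. Their mean level ran from 11.99 to 12.30 in the SAHA arrays and from 12.97 to 12.99 in the pargyline arrays, against 12.81 to 12.83 with DMSO. None of 10 fibroblast markers and none of 11 leukocyte markers was above the median level in any of these 3 groups.

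Many genes read differently under the 2 drugs, in nearly equal numbers each way. In limma's moderated test 2803 genes were higher with SAHA (23.4% of 11963) and 2718 were lower (22.7%), 46.2% in all. These genes, said below to have passed, had a p under 0.05 after Benjamini-Hochberg adjustment across the whole table. The difference was at least 2-fold for 1009 higher genes (8.43%) and 1060 lower genes (8.86%). It was 8-fold or more, 3 on the log2 scale, for 113 higher and 131 lower genes. The median absolute difference of the genes that passed was 0.79, and 1551 of them differed by less than 0.5. The median standard error of a difference was 0.08 over all genes.

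The 3 SAHA arrays lay wholly above the 3 pargyline arrays for 3095 genes (25.9%) and wholly below them for 2996 genes (25%). Above the median level 72.0% of genes passed, and below it 20.3%. Of the 6442 genes that did not pass, 5646 had a 95% interval of the difference within -0.5 to 0.5, and 1250 of these were above the median level. For the other 796 the interval reached past 0.5 in size, so a difference of that size was not excluded. Against DMSO, 5522 genes passed with SAHA (46.2%) and 1905 with pargyline (15.9%). Those 2 comparisons share the 3 DMSO arrays, so their values are set side by side below to show where the vehicle lay, and no overlap between them is read as a result.

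**Figure D1:**
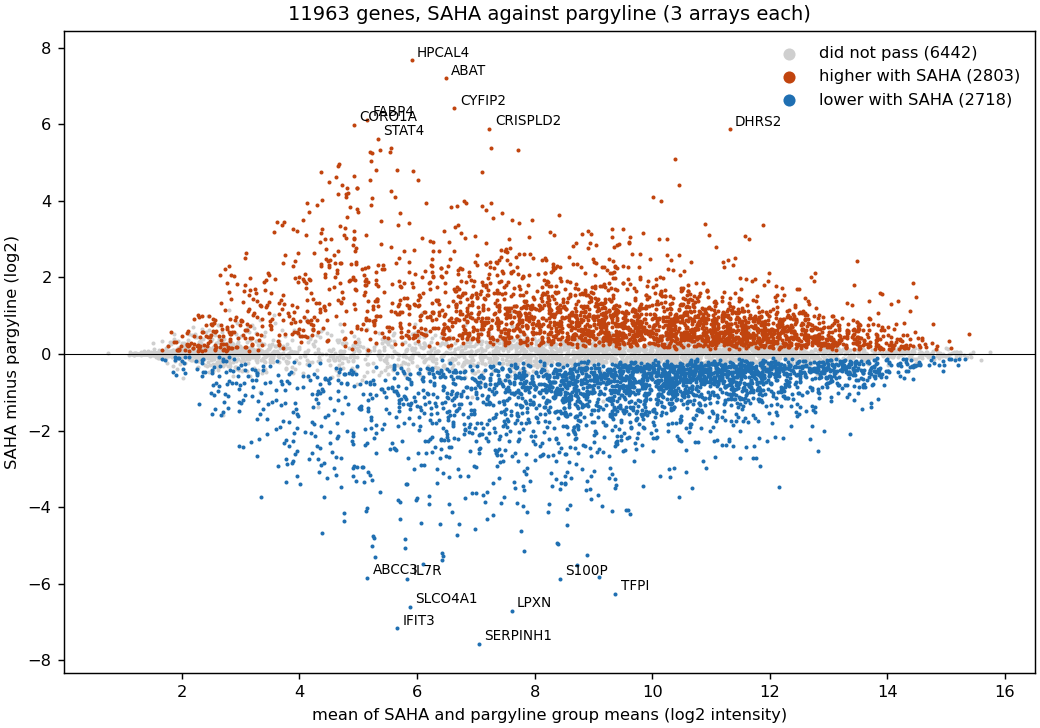
Difference between SAHA and pargyline (log2, vertical axis) against the mean of both group means (log2 intensity, horizontal axis) for 11963 genes, with 3 arrays per group. Coloured points passed (2803 higher and 2718 lower with SAHA), grey points did not, and the 8 largest differences each way are named, from 7.66 for HPCAL4 to -7.56 for SERPINH1.

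Several of the largest differences upward were in genes that read below 3, near the low end of the scale, on the pargyline arrays. HPCAL4, a neuronal calcium sensor, read 9.92, 9.81 and 9.48 in the SAHA arrays, 2.06, 2.10 and 2.07 in the pargyline arrays, and 2.07, 2.08 and 2.09 with DMSO. Of these 3 groups the SAHA arrays were the high ones, the combination mean was 9.42, and the difference was 7.66 ± 0.10 (SE, n = 3 arrays a group; limma adjusted p = 5.44e-11). ABAT, which breaks down the transmitter GABA, read 10.003, 10.37 and 9.91 with SAHA and 2.87, 3.00 and 2.81 with pargyline. The pargyline arrays were again at the vehicle's level (2.93, 3.03 and 2.87), and the groups lay 7.20 ± 0.15 apart (limma adjusted p = 2.07e-09). A second probe set for HPCAL4 gave only 0.24, from a mean level of 1.68, while ABAT had 1 that gave 7.16 and 1 that gave 0.05 from a mean level of 1.96.

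STAT4, a transcription factor of cytokine signalling, showed the tightest readings of this group. It read 8.12, 8.12 and 8.20 with SAHA, 2.52, 2.62 and 2.44 with pargyline and 2.43, 2.56 and 2.47 with DMSO. Its difference of 5.62 ± 0.07 (limma adjusted p = 5.44e-11) rested on SAHA arrays that were all high by nearly the same amount. DHRS2, a mitochondrial short-chain dehydrogenase, already gave a clear signal without SAHA: 8.56, 8.40 and 8.19 with pargyline and 7.96, 8.46 and 8.31 with DMSO. With SAHA it reached 14.25, 14.40 and 14.09, a difference of 5.87 ± 0.15. A second, dimmer probe set for DHRS2, at a mean level of 8.78, gave 8.94, so the size depends on the probe set. FABP4, a fatty acid carrier, differed by 6.12 ± 0.32, CORO1A, an actin-binding protein best known from leukocytes, by 5.98 ± 0.49, and CRISPLD2, a secreted protein, by 5.88 ± 0.36. In CORO1A the third SAHA array was the lowest (8.64, 8.19 and 6.92), still far above the pargyline arrays (1.39, 1.92 and 2.49). ARL14, DNM3, a dynamin, and SCG2, a secretory granule protein, differed by 5.37, 5.33 and 5.32.

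Downward, the largest difference was in SERPINH1, the chaperone of collagen in the endoplasmic reticulum. It read 3.48, 3.11 and 3.21 with SAHA, 11.07, 10.72 and 10.70 with pargyline and 11.05, 11.09 and 10.87 with DMSO. The SAHA arrays were low, as was the combination mean of 2.60, and lay -7.56 ± 0.26 from the pargyline arrays (limma adjusted p = 2.8e-08). LPXN, a focal adhesion adaptor of the paxillin family, read 4.38, 4.44 and 3.96 with SAHA and 10.90, 11.07 and 10.90 with pargyline. The vehicle lay near the pargyline arrays, at 9.95, 10.12 and 10.15, and the difference was -6.70 ± 0.28. SLCO4A1, an organic anion transporter, differed by -6.61 ± 0.22, TFPI, the inhibitor of the tissue factor pathway of clotting, by -6.27 ± 0.26, and LAMB1, a laminin chain of basement membranes, by -5.37 ± 0.18. IL7R, the receptor of interleukin 7, and PLAU, the protease urokinase, had the widest SAHA readings here. IL7R read 1.96, 2.53 and 4.18 with SAHA and 9.08, 8.71 and 8.50 with pargyline, and PLAU read 5.84, 5.11 and 7.60 against 11.94, 12.17 and 11.89. In both the third SAHA array was the nearest to pargyline but did not reach it (-5.87 ± 0.65 and -5.82 ± 0.65).

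S100P, a small calcium-binding protein, was the one gene among the 24 largest differences for which SAHA and DMSO did not differ by the test while pargyline stood apart. It read 5.49, 5.51 and 5.49 with SAHA, 11.80, 10.91 and 11.40 with pargyline, and 6.21, 7.35 and 5.96 with DMSO. The pargyline arrays were all high, and the difference was -5.88 ± 0.47 (limma adjusted p = 4.98e-06). It was 4.87 above DMSO with pargyline, and -1.01 from DMSO with SAHA, which did not pass. With both drugs its mean was 9.26, between both single drugs.

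**Figure D2:**
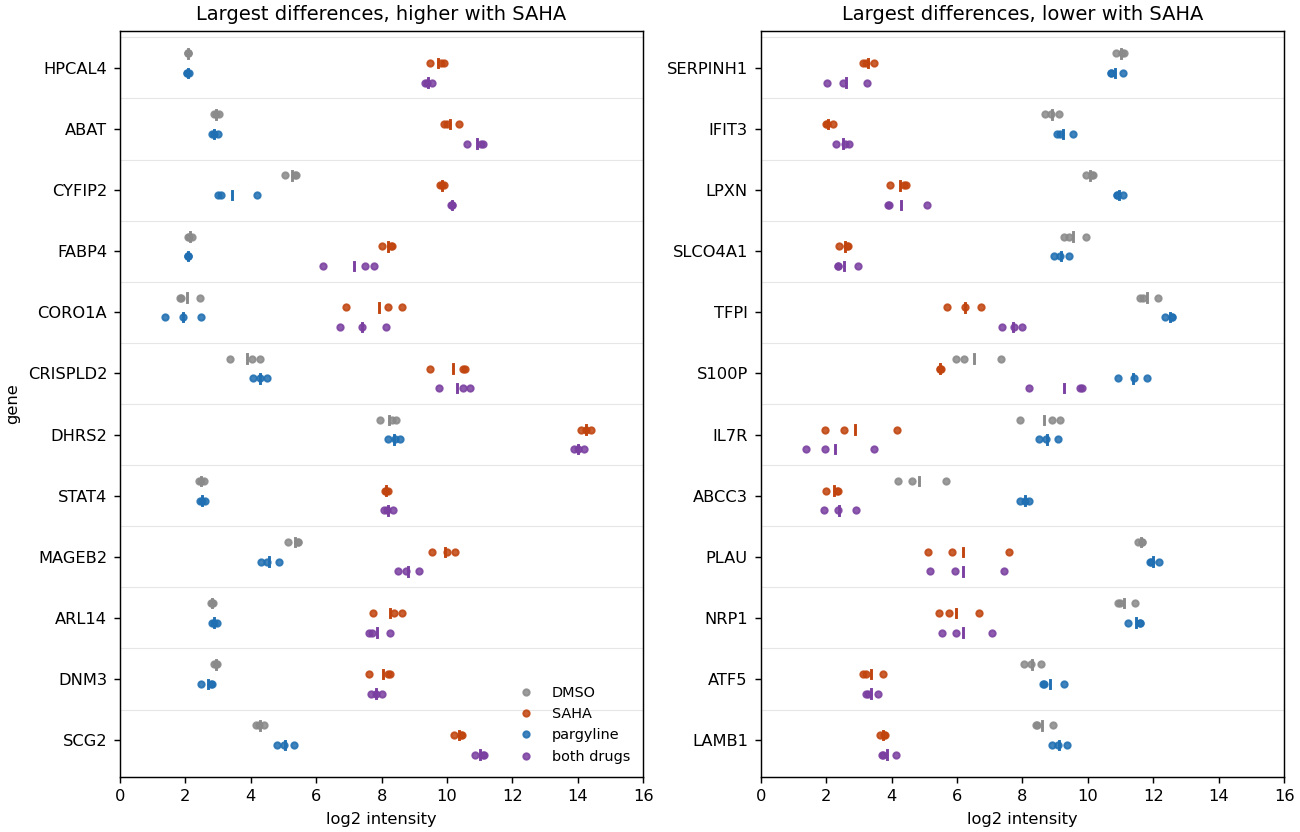
Log2 intensity (horizontal axis) of the 12 genes with the largest differences each way, in each of the 3 DMSO, SAHA, pargyline and combination arrays (points, with a bar at each group mean). The rule for these 24 genes took only genes whose SAHA and pargyline arrays do not overlap, and S100P is the one whose pargyline arrays, from 10.91 to 11.80, lie far from DMSO while its SAHA arrays lie near 5.5.

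Some genes went opposite ways under the 2 drugs. Named here are the 8 each way in which the smaller of both changes against DMSO was the largest. TXNIP, which binds and inhibits thioredoxin and limits glucose uptake, read 12.87, 13.25 and 12.67 with SAHA, 7.68, 7.95 and 7.86 with pargyline and 9.80, 9.62 and 9.30 with DMSO. The 3 groups did not overlap, with DMSO in the middle, and SAHA lay 5.10 ± 0.19 above pargyline (limma adjusted p = 4.2e-08). SREBF1, which encodes the SREBP-1 regulator of lipid synthesis, had the same order: 13.01, 12.60 and 12.40 with SAHA, 9.80, 9.02 and 9.70 with DMSO, and 8.12, 8.15 and 8.49 with pargyline. Its difference was 4.41 ± 0.26 (adjusted p = 6.9e-07 in limma), made of a rise of 3.16 with SAHA and a change of -1.25 with pargyline. CYFIP2, a subunit of the WAVE complex that drives actin branching, rose by 4.58 with SAHA and changed by -1.84 with pargyline. The linker histone gene H1-2 rose by 1.43 and changed by -1.14, and KHK, ketohexokinase, the first enzyme of fructose breakdown, rose by 2.14 and changed by -1.19. ASTN2, STOML1 and GNB1L were the others, with SAHA 3.04, 3.05 and 2.54 above pargyline.

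The other 8 had the opposite order, with SAHA lowest and pargyline highest. ABCC3, an exporter of conjugated organic anions, read 2.34, 1.99 and 2.36 with SAHA, 4.19, 5.67 and 4.62 with DMSO and 7.94, 8.07 and 8.21 with pargyline. None of the 3 groups overlapped, and SAHA lay -5.84 ± 0.36 from pargyline (limma adjusted p = 8.22e-07). CSF1, the growth factor of macrophages, read 6.02, 6.08 and 6.04 with SAHA, 8.11, 7.75 and 7.65 with DMSO, and 9.70, 9.58 and 9.48 with pargyline. Its steps from the vehicle were nearly equal, -1.79 with SAHA and 1.75 with pargyline. TLR3, the sensor of double-stranded RNA in endosomes, changed by -2.70 with SAHA and rose by 1.67 with pargyline, and NINJ2, an adhesion protein, changed by -3.36 and rose by 1.45. CDK5RAP2, a centrosome protein that anchors microtubule nucleation, lay -2.64 ± 0.15 from pargyline, and GPRC5C, ATP9A and MILR1 lay -3.41, -3.31 and -3.19 from it. ATP9A had the widest pargyline readings, 6.05, 6.30 and 7.49, and a second probe set for it gave 0.02 from a mean level of 2.48.

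Other genes changed against DMSO with both drugs and did not differ between them by the test. EPAS1, the hypoxia-inducible factor HIF-2 alpha, read 12.22, 12.20 and 12.37 with SAHA and 12.30, 12.16 and 12.30 with pargyline, where DMSO gave 10.03, 10.17 and 10.04. The SAHA and pargyline arrays overlapped and both were above DMSO, and the difference was 0.01 with a 95% interval from -0.14 to 0.16. BNIP3L, a mitophagy receptor, rose by 1.14 with each drug, and its interval of the difference ran from -0.39 to 0.38. AKR1C3, an aldo-keto reductase that acts on steroids and prostaglandins, rose by 2.32 with SAHA and 2.53 with pargyline. Its difference of -0.20 (interval -0.39 to -0.01) did not pass after adjustment (adjusted p = 0.0872 in limma), and did when the 6 arrays were fitted alone (adjusted p = 0.0446). IDI1, an enzyme of the mevalonate pathway, CTH, which makes cysteine, and BCKDHA were the other rises, with differences of 0.11, -0.17 and 0.07. Those that fell with both were REXO5, CCNF, NPM3, HIRIP3, ARHGAP19 and NFX1. CCNF, a cyclin that marks proteins for breakdown, changed by -1.13 and -1.02, and NPM3, a nucleolar histone chaperone, by -1.09 and -0.99, with intervals of the difference from -0.44 to 0.21 and from -0.23 to 0.04.

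**Figure D3:**
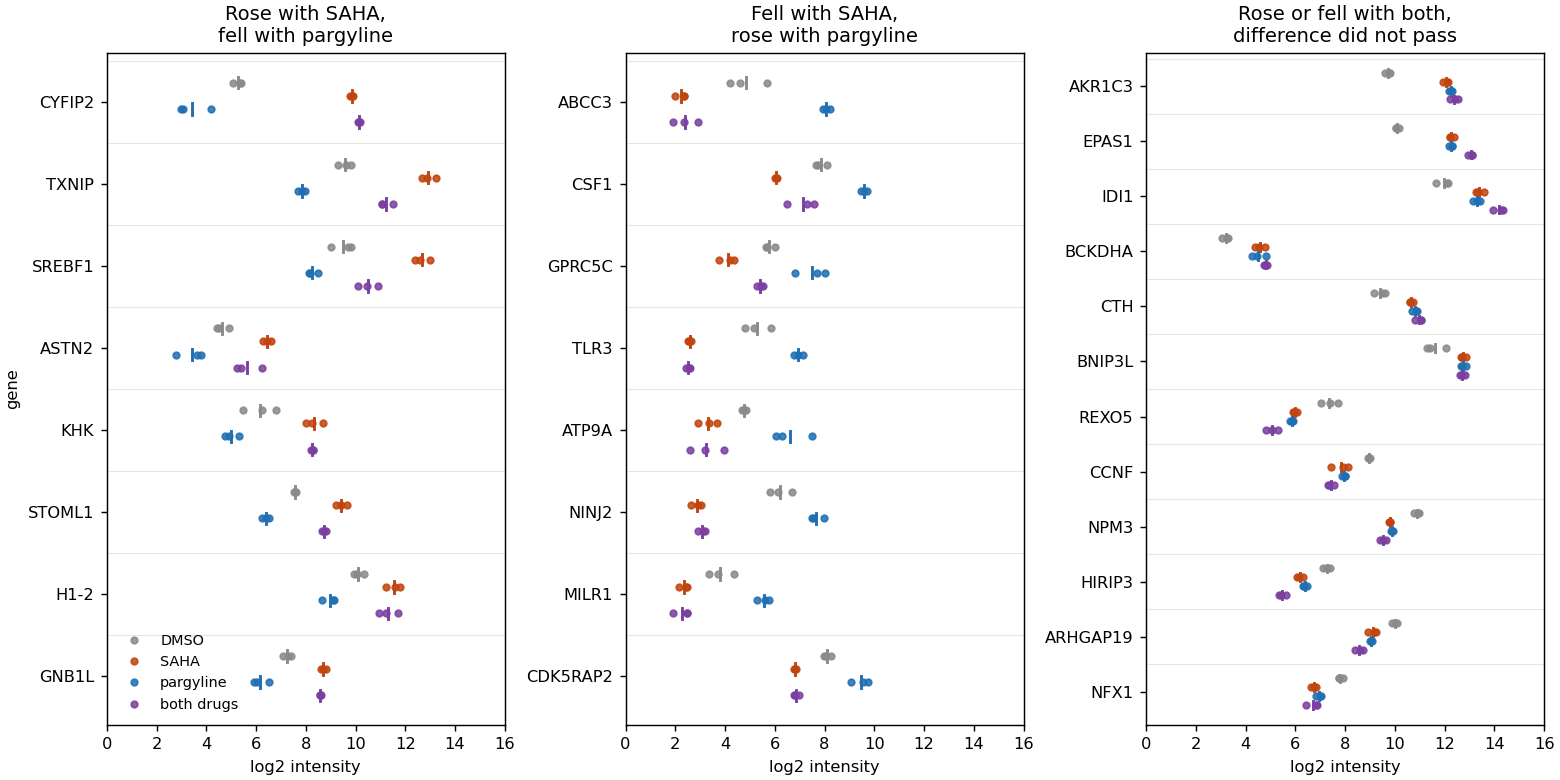
Log2 intensity (horizontal axis) in each of the 12 arrays (points, with a bar at each group mean) for genes that rose with SAHA and fell with pargyline, genes that did the opposite, and genes that rose or fell with both and did not pass between the drugs. By the rule that chose them DMSO lies between the drugs in the first 2 panels, as for SREBF1 and CSF1. In the third the SAHA and pargyline arrays lie close together. They overlap for EPAS1, but for AKR1C3 and NPM3 the pargyline arrays lie wholly above the SAHA arrays.

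The genes of the drugs' own targets differed between them too. Among the 9 deacetylase genes with a probe set of their own, 5 were higher with SAHA, 2 lower and 2 did not pass (46.2% of all genes passed). HDAC3, the catalytic subunit of the NCoR corepressor, read 12.05, 12.02 and 11.72 with SAHA, 10.41, 10.40 and 10.51 with pargyline and 10.78, 10.65 and 10.54 with DMSO. The SAHA arrays were above those of pargyline and DMSO, and the combination mean was 11.60 (1.49 ± 0.09, limma adjusted p = 8.69e-07). HDAC5, a class IIa enzyme, was above DMSO with both drugs, and 1.76 ± 0.19 higher with SAHA. HDAC7, of the same class, read 2.62, 2.65 and 2.59 with SAHA and 3.38, 5.12 and 5.26 with pargyline, a difference of -1.97 ± 0.41 in which the first pargyline array was low. HDAC4 differed by -0.73 ± 0.16, HDAC6, the cytoplasmic tubulin deacetylase, by 0.45 ± 0.08 and HDAC1 by 0.20 ± 0.04. HDAC2 gave 0.16 ± 0.07 (95% interval 0.00 to 0.32, adjusted p = 0.0932 in limma) and HDAC11 0.13 ± 0.07, and neither passed. HDAC2 gave 0.21 and passed without the first SAHA array (adjusted p = 0.0492 in limma), and gave 0.08 without the third SAHA array. For HDAC9 the difference was 1.05 ± 0.37 (adjusted p = 0.0409 in limma), and it passed still when the second pargyline or the first SAHA array was left out. It did not when any other SAHA, pargyline or DMSO array was (0.70, adjusted p = 0.142, without the third SAHA array).

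KDM1A, which encodes LSD1, read 10.85, 10.56 and 10.56 with SAHA, 10.11, 9.88 and 10.01 with pargyline and 10.48, 10.53 and 10.32 with DMSO. The pargyline arrays were the low ones, -0.44 from DMSO, and SAHA lay 0.65 ± 0.09 above them (limma adjusted p = 0.000205). MAOA, one of both monoamine oxidases, rose with each drug, by 1.20 with SAHA and 0.42 with pargyline, and lay 0.78 ± 0.11 higher with SAHA. MAOB stayed near 2.3 to 2.7 on all 6 arrays. Its difference of 0.22 ± 0.08 (adjusted p = 0.0402) did not pass without the second SAHA array (0.12, adjusted p = 0.0926 in limma) or without the first or the third pargyline array or any 1 DMSO array. Among CoREST partners, RCOR1 was 0.35 ± 0.07 and HMG20B 1.12 ± 0.06 higher with SAHA, and GSE1 and ZMYM3 differed by -1.22 ± 0.19 and -1.12 ± 0.20.

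Genes of growth arrest were more often higher with SAHA: 12 of 25 were higher, 2 were lower and 11 did not pass, with a median difference of 0.25 against 0.02 over all genes. CDKN1A, the gene of p21, which blocks cyclin-dependent kinases, read 11.16, 10.92 and 10.58 with SAHA, 9.31, 9.06 and 9.07 with pargyline and 7.13, 7.10 and 6.96 with DMSO. Both drugs were above the vehicle and the 3 groups did not overlap, and SAHA was 1.74 ± 0.25 higher (limma adjusted p = 0.000221). CDKN1C, which encodes the related inhibitor p57, was 3.13 ± 0.33 higher with SAHA and did not pass with pargyline against DMSO (-0.24). FOXO1, a transcription factor held back by insulin signalling, was 1.75 ± 0.09 higher. The 2 lower genes were TOB2 (-0.56) and BTG3 (-0.47), named after their values were seen.

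Counts for 42 gene lists were set beside the counts over all genes. Lists in which more members were lower than higher by a wide margin included cholesterol synthesis (13 of 17 lower), ribosome biogenesis (24 of 34), cytosolic aminoacyl-tRNA synthetases (11 of 16) and ATF4 targets (22 of 36). Interferon-stimulated genes (27 of 50), mitosis (29 of 58), heat shock (13 of 26) and amino acid transporters (10 of 23) were others. Lists that leaned the other way included metallothioneins and zinc (11 of 14 higher), autophagy (15 of 26), oxidative phosphorylation (27 of 51), growth arrest (12 of 25) and immediate early genes (21 of 42). Over all genes the shares were 23.4% higher and 22.7% lower. Most list genes are expressed above the median level, where a larger share of all genes passed (72.0%), so a list's split between higher and lower says more than its number of passing genes.

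**Figure D4:**
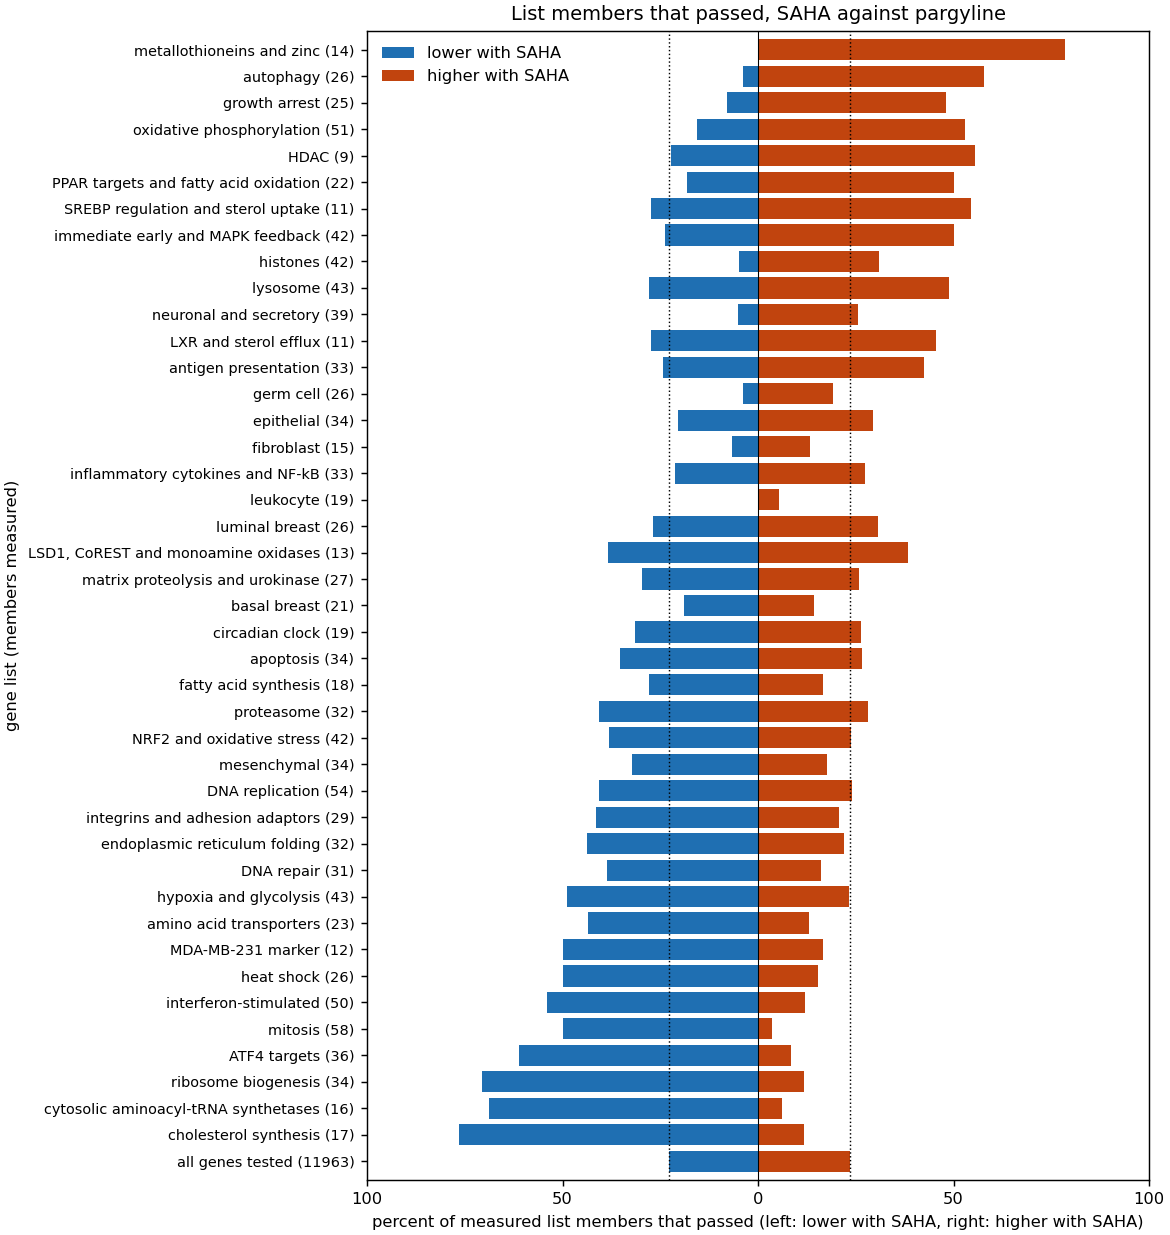
Percent of the measured members of each gene list that were lower (blue, left) or higher (orange, right) with SAHA than with pargyline by limma's test, with the number measured in parentheses. Dotted lines mark the shares over all 11963 genes, 22.7% lower and 23.4% higher.

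Many mitosis genes fell against DMSO with each drug, and more of them were lower with SAHA than with pargyline. Against DMSO 49 of 58 fell with SAHA (median -1.12, where 23.1% of all genes fell) and 30 fell with pargyline (median -0.56, where 7.45% of all genes fell), and none rose with either. Directly compared, 29 were lower with SAHA, 2 were higher and 27 did not pass, with a median of -0.56. AURKA, a kinase of the spindle poles, read 11.35, 11.18 and 11.50 with SAHA, 13.05, 12.85 and 12.72 with pargyline and 13.38, 13.32 and 13.41 with DMSO. The SAHA arrays were the lowest by more than the spread of either group (-1.53 ± 0.12, limma adjusted p = 3.95e-06). FOXM1, the transcription factor of the late cell cycle genes, differed by -1.84 ± 0.15, CDC25B, a phosphatase that activates the mitotic kinase, by -1.36 ± 0.05 and UBE2C, which tags mitotic cyclins for breakdown, by -1.35 ± 0.16. PLK1, a kinase of mitotic entry named after its values were seen, had the largest difference of the list, -2.99 ± 0.26. The 2 higher genes, also named afterwards, were NEK2 (0.58) and KIF18A (0.28). That count was 1 without the first pargyline array or any 1 SAHA array, and 0 without the third pargyline array.

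Many promoters of late cell cycle genes hold a CHR (cell cycle genes homology region), the letters TTTGAA, bound by the DREAM and FOXM1 complexes. Promoters here are the 250 bases before the RefSeq start on GRCh38.p14, matched for 9562 of 11963 genes, and motifs were searched on both strands. RefSeq lists several starts for 2753 of these genes, of which the first listed was used, and counts over any start were added after the data were seen. The CHR letters stood in 25 of 49 mitosis promoters (51.0%) and in 9.73% of all promoters. Mitosis genes with and without them had the same median difference, -0.56 in each, and 13 of the 25 with them were lower with SAHA. Over any start the letters stood in 53.1% of the list and 13.9% of all, and 14 of 26 genes with them were lower. The stretches below show the letters in capitals (TTCAAA where they lie on the opposite strand) in 3 genes that were lower with SAHA and in 1 that did not pass, chosen after their values were seen, to let them be compared beside differences of -2.99 for PLK1, -1.43 for CDCA8, -1.18 for CCNB2 and 0.27 for CDC20.
PLK1: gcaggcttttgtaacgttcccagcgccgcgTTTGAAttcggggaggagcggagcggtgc
CDCA8: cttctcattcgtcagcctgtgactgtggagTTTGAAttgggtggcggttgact
CCNB2: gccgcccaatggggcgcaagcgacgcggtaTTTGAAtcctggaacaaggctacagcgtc
CDC20: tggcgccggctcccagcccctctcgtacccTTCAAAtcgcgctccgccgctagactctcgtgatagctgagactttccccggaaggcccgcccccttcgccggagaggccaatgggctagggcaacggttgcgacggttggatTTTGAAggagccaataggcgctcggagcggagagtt
They lie at chr16:23678830-23678888 for PLK1, chr1:37692463-37692515 for CDCA8, chr15:59105087-59105145 for CCNB2 and chr1:43358773-43358951 for CDC20, all on the + strand, upstream of the RefSeq start used. The matches begin 29 bases before the start in PLK1 and CCNB2, 23 in CDCA8, and 178 and 65 in CDC20. In CDCA8 the match shares a base with an NF-Y box (CCAAT), and in CDC20 it overlaps a match to the antioxidant response element core. PLK1 read 3.30, 3.63 and 3.31 with SAHA, 6.83, 6.18 and 6.19 with pargyline and 7.65, 7.66 and 7.69 with DMSO. CDC20, which activates the anaphase-promoting complex, read 12.05, 11.79 and 11.82 with SAHA, 11.88, 11.61 and 11.36 with pargyline and 12.78, 12.72 and 12.50 with DMSO. In PLK1 the drugs' arrays stand apart, while in CDC20 they overlap and both lie below DMSO.

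DNA replication genes were split. Of 54, 13 were higher with SAHA, 22 lower and 19 did not pass, with a median of -0.16 (64.8% passed, against 46.2% of all genes). TYMS, thymidylate synthase, read 11.65, 11.30 and 11.70 with SAHA, 14.03, 14.18 and 14.08 with pargyline and 14.24, 14.31 and 14.30 with DMSO. SAHA was below pargyline and DMSO, and the combination mean was 10.72 (-2.55 ± 0.16, limma adjusted p = 1.07e-06). Other enzymes of nucleotide supply went the other way: RRM2, the small subunit of ribonucleotide reductase, was 1.12 ± 0.18 and TK1, thymidine kinase, 1.10 ± 0.15 higher with SAHA. Among subunits of the GINS complex, which is part of the replicative helicase, GINS3 differed by -2.53 ± 0.15 and GINS4 by 1.76 ± 0.20. Of 31 DNA repair genes, 12 were lower, 5 higher and 14 did not pass, with a median of -0.08. That is 54.8% passing, and 25 of the 31 lay above the median level, where 72.0% of all genes passed. NBN, a member of the complex that senses double-strand breaks, differed by -1.26 ± 0.13.

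Ribosome biogenesis genes were lower with SAHA in 24 of 34 cases, 4 were higher and 6 did not pass, with a median of -0.56. GAR1, a core protein of the particles that place pseudouridine in RNA, read 10.03, 10.03 and 10.11 with SAHA, 11.55, 11.61 and 11.49 with pargyline and 11.82, 11.74 and 11.75 with DMSO. The groups were tight and did not overlap (-1.49 ± 0.04, limma adjusted p = 7.92e-09). UTP20, part of the small subunit processome, differed by -1.94 ± 0.18, MYBBP1A, a nucleolar protein, by -1.67 ± 0.18 and NIP7, which acts in large subunit assembly, by -1.29 ± 0.06. Against DMSO 25 of the 34 fell with SAHA (median -0.81, where 23.1% of all genes fell) and 13 with pargyline (median -0.22, where 7.45% fell).

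ATF4 is a transcription factor whose translation rises under amino acid shortage and endoplasmic reticulum stress, and whose targets supply amino acids. Of 36 ATF4 targets, 22 were lower with SAHA, 3 were higher and 11 did not pass, with a median of -0.93. Against DMSO 20 of the 36 rose and none fell with pargyline (8.48% of all genes rose with it), while 11 rose and 16 fell with SAHA (23% and 23.1% of all genes). TRIB3, a pseudokinase that restrains ATF4, read 6.68, 6.66 and 6.96 with SAHA, 10.28, 10.12 and 10.03 with pargyline and 8.95, 9.44 and 8.53 with DMSO. The vehicle lay between the drugs without overlap (-3.37 ± 0.31, limma adjusted p = 1.11e-05). ATF5, a related factor, had the largest difference, -5.49 ± 0.22, and SLC7A11, the cystine importer, differed by -2.71 ± 0.29. ATF4 itself, named after its values were seen, changed by -0.65 with SAHA, rose by 0.72 with pargyline, and differed by -1.37 ± 0.13. ATF3, which is also an immediate early gene, rose with both, by 4.67 with SAHA and 2.39 with pargyline, and was 2.28 ± 0.20 higher with SAHA. PSPH and SLC38A2, named afterwards, were the other 2 higher genes, by 0.49 and 0.32.

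The enzymes that charge tRNAs were counted as a list of their own. Of 16 cytosolic aminoacyl-tRNA synthetases, 11 were lower with SAHA, 1 was higher and 4 did not pass, with a median of -0.40. Against DMSO 10 fell and 1 rose with SAHA (23.1% and 23% of all genes), and 6 rose and none fell with pargyline (8.48% and 7.45%). IARS1, for isoleucine, read 13.36 in all 3 SAHA arrays, 14.17, 14.19 and 14.11 with pargyline and 13.77, 13.85 and 13.85 with DMSO. The vehicle again lay between the drugs (-0.80 ± 0.04, limma adjusted p = 2.51e-07). YARS1, TARS1 and GARS1, for tyrosine, threonine and glycine, differed by -1.17 ± 0.09, -1.07 ± 0.08 and -0.82 ± 0.08. The higher one, named afterwards, was RARS1, for arginine (0.23). Amino acid transporters were lower in 10 of 23 cases and higher in 3. SLC38A1, a glutamine carrier, differed by -2.92 ± 0.17, and SLC38A4, of the same family, by 2.46 ± 0.20.

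Cholesterol synthesis genes were the list with the largest share lower with SAHA: 13 of 17 were lower, 2 higher and 2 did not pass, with a median of -0.90. Both drugs raised most of them. Against DMSO 16 of 17 rose with pargyline (median 1.32, where 8.48% of all genes rose) and 11 rose and 1 fell with SAHA (median 0.56, where 23% of all genes rose). SQLE, the epoxidase that opens the sterol branch, read 10.41, 10.20 and 10.27 with SAHA, 11.61, 11.41 and 11.41 with pargyline and 9.88, 9.45 and 10.01 with DMSO. Both drugs lay above the vehicle, pargyline by more (-1.19 ± 0.16, limma adjusted p = 0.000184). NSDHL, which removes the methyl groups of the sterol ring, changed by -0.25 with SAHA, which did not pass, and rose by 1.46 with pargyline. ACAT2, the cytosolic acetyl-CoA acetyltransferase at the start of the pathway, was the one that fell with SAHA (-0.94), and it rose by 0.87 with pargyline. TM7SF2, a sterol reductase, and PMVK, phosphomevalonate kinase, were higher with SAHA, by 1.28 ± 0.25 and 1.16 ± 0.13. HMGCS1, the synthase before the rate-limiting step, and IDI1 did not pass (-0.49, 95% interval -1.14 to 0.17, and 0.11, interval -0.24 to 0.45).

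SREBP-1 and SREBP-2 turn on lipid and sterol genes when sterols run low, and LXR turns on sterol efflux when they are high. Of 11 genes of SREBP regulation and sterol uptake, 6 were higher with SAHA, 3 lower and 2 did not pass (median 0.43). MYLIP, an LXR target that marks the LDL receptor for breakdown, read 8.99, 8.63 and 8.80 with SAHA, 4.78, 4.73 and 4.90 with pargyline and 7.88, 7.40 and 7.90 with DMSO. The pargyline arrays were far below both other groups (4.01 ± 0.15, limma adjusted p = 5.44e-08). SREBF2, named after its values were seen, changed by 0.01 with SAHA, which did not pass, rose by 0.67 with pargyline and differed by -0.66 ± 0.12. LRP8 and VLDLR, lipoprotein receptors, differed by -2.51 ± 0.21 and -1.14 ± 0.19. Of 11 LXR and efflux genes, 5 were higher and 3 lower. ABCG1, a sterol exporter, read 7.60, 7.53 and 7.90 with SAHA, 3.41, 3.56 and 3.28 with pargyline and 4.21, 3.89 and 4.39 with DMSO (4.26 ± 0.15). ABCA1, the other main exporter, named afterwards, did not pass with SAHA against DMSO (-0.47), fell by 2.22 with pargyline, and was 1.75 ± 0.29 higher with SAHA. For LPCAT3, an LXR target that remodels phospholipids, the probe set used gave 1.54 ± 0.09 and a dimmer one -1.73, so the direction depends on the probe set.

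Genes of fatty acid handling went both ways. Among 18 fatty acid synthesis genes 3 were higher with SAHA, 5 lower and 10 did not pass (median -0.04). In all 44.4% passed, against 46.2% of all genes. ACSL5, which activates long-chain fatty acids, read 7.33, 7.45 and 7.85 with SAHA, 11.89, 11.65 and 11.61 with pargyline and 10.76, 10.66 and 10.93 with DMSO. The SAHA arrays were low and pargyline was above the vehicle (-4.17 ± 0.15, limma adjusted p = 3.98e-08). ELOVL6, an elongase, differed by -3.01 ± 0.24, while FADS3, of the same list, was 1.55 ± 0.13 higher with SAHA. Of 22 PPAR targets and oxidation genes, 11 were higher with SAHA and 4 lower. ANGPTL4, an inhibitor of lipoprotein lipase, read 5.51, 5.72 and 5.20 with SAHA, 9.63, 9.16 and 9.33 with pargyline and 5.84, 5.79 and 4.72 with DMSO. The pargyline arrays were above those of SAHA and DMSO, and the combination mean was 8.82 (-3.90 ± 0.28). PLIN2, a coat protein of lipid droplets, differed by -2.31 ± 0.13, while UCP2, a mitochondrial carrier, was 2.11 ± 0.09 higher with SAHA.

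Interferon-stimulated genes were lower with SAHA in 27 of 50 cases, higher in 6, and did not pass in 17, with a median of -0.57. The list holds antiviral effectors, sensors of viral RNA and guanylate-binding proteins. Against DMSO 24 fell and 8 rose with SAHA (23.1% and 23% of all genes), and 2 fell and 12 rose with pargyline (7.45% and 8.48%). IFIT3, an effector that binds viral RNA with its partners, read 2.02, 2.00 and 2.20 with SAHA, 9.54, 9.14 and 9.05 with pargyline and 9.11, 8.88 and 8.68 with DMSO. The SAHA arrays were at the low end of the scale (-7.17 ± 0.15, limma adjusted p = 2.21e-09). IFIT2, its neighbour in function, differed by -5.30 ± 0.28 and IFI35 by -5.05 ± 0.14. DDX60, a helicase that aids RNA sensing, fell by 3.18 with SAHA, rose by 1.23 with pargyline, and differed by -4.41 ± 0.29. IFI44 read 4.88, 4.91 and 6.60 with SAHA, the third array nearest to the pargyline arrays (9.98, 10.24 and 10.01), and differed by -4.62 ± 0.40. Some effectors went the other way, named after their values were seen: IFI6, which blocks viral replication at the endoplasmic reticulum, was 2.65 ± 0.12 higher with SAHA, and ISG15, a ubiquitin-like modifier, 0.68 ± 0.10 higher.

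The interferon-stimulated response element, ISRE, is bound by ISGF3 and IRF proteins. Its core, searched as GAAANNGAA on both strands, stood in 24 of 41 promoters of the list (58.5%) and in 5.94% of all promoters. Of those 24 genes 13 were lower with SAHA, 2 were higher and 9 did not pass. Of the 17 without it 10 were lower and 3 higher. Over any start it stood in 63.4% of the list and 8.18% of all, and 14 of 26 genes with it were lower. The stretches below show the core in capitals (reverse-complemented where it lies on the opposite strand) in 4 genes that were lower with SAHA, IFIT3, IFI44, DDX60 and GBP1, and in the 2 that were higher, IFI6 and ISG15, so that both directions can be read beside the element. GBP1, IFI6 and ISG15 were chosen after their values were seen.
IFIT3: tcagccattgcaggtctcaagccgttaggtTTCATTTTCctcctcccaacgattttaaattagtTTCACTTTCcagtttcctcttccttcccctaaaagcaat
IFI44: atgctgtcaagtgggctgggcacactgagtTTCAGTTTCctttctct
DDX60: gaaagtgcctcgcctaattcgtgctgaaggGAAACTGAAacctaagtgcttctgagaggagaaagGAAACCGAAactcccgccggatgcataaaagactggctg
GBP1: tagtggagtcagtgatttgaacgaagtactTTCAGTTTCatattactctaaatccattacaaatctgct
IFI6: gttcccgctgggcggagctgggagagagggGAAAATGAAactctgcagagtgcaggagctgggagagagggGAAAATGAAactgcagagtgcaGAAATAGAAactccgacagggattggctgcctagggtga
ISG15: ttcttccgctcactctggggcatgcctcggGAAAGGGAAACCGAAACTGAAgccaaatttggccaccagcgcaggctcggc
They lie at chr10:89327812-89327914 (IFIT3), chr1:78649742-78649788 (IFI44) and chr1:1013354-1013434 (ISG15) on the + strand, and at chr4:168318767-168318870 (DDX60), chr1:89065296-89065364 (GBP1) and chr1:27672247-27672378 (IFI6) on the - strand, all upstream of the RefSeq start used and written 5′ to 3′ on the gene's strand. The first match begins 155 bases before the start in IFIT3, 17 in IFI44, 88 in DDX60, 126 in GBP1, 156 in IFI6 and 113 in ISG15. IFI6 and ISG15 hold 3 matches each, which overlap one another in ISG15, and IFIT3 and DDX60 hold 2 each. In IFI6 a match also overlaps the antioxidant response element core. GBP1, a guanylate-binding protein, read 6.95, 7.14 and 7.62 with SAHA, 10.63, 11.32 and 10.84 with pargyline and 10.05, 10.15 and 10.30 with DMSO. IFI6 read 8.85, 8.90 and 8.84 with SAHA, 6.30, 6.35 and 5.99 with pargyline and 5.68, 5.42 and 5.18 with DMSO. Both genes hold the core and their groups do not overlap, with SAHA low in GBP1 and high in IFI6.

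Antigen presentation genes were split, with 14 of 33 higher and 8 lower (median 0.07). HLA-DMB, a chaperone of class II peptide loading, read 7.87, 7.90 and 7.80 with SAHA, 2.56, 2.90 and 2.40 with pargyline and 2.78, 2.68 and 2.36 with DMSO, so that SAHA was above pargyline and DMSO, and the combination mean was 8.18 (5.23 ± 0.14, limma adjusted p = 6.74e-09). The immunoproteasome subunits went down: PSMB10 read 2.75, 2.72 and 2.69 with SAHA against 8.09, 7.49 and 7.65 with pargyline (-5.02 ± 0.15), and PSMB8 differed by -3.89 ± 0.31. ERAP1, which trims peptides, and TAP2, which carries them, differed by -1.96 ± 0.20 and -1.63 ± 0.12. For ERAP1 the size depends on the probe set: another, at a mean level of 8.01, gave -0.14 and did not pass. A dimmer one, at 4.88, gave -2.87, and those at 2.99 and 2.37 each gave 0.05. Of 33 cytokine and NF-kB genes 9 were higher, 7 lower and 17 did not pass, with a median of 0.03. The share that passed, 48.5%, was near the 46.2% of all genes. CXCL8, interleukin 8, was 3.25 ± 0.31 higher with SAHA, LIF differed by -4.94 ± 0.62 and NFKB1, the p50 subunit, by -3.76 ± 0.36.

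**Figure D5:**
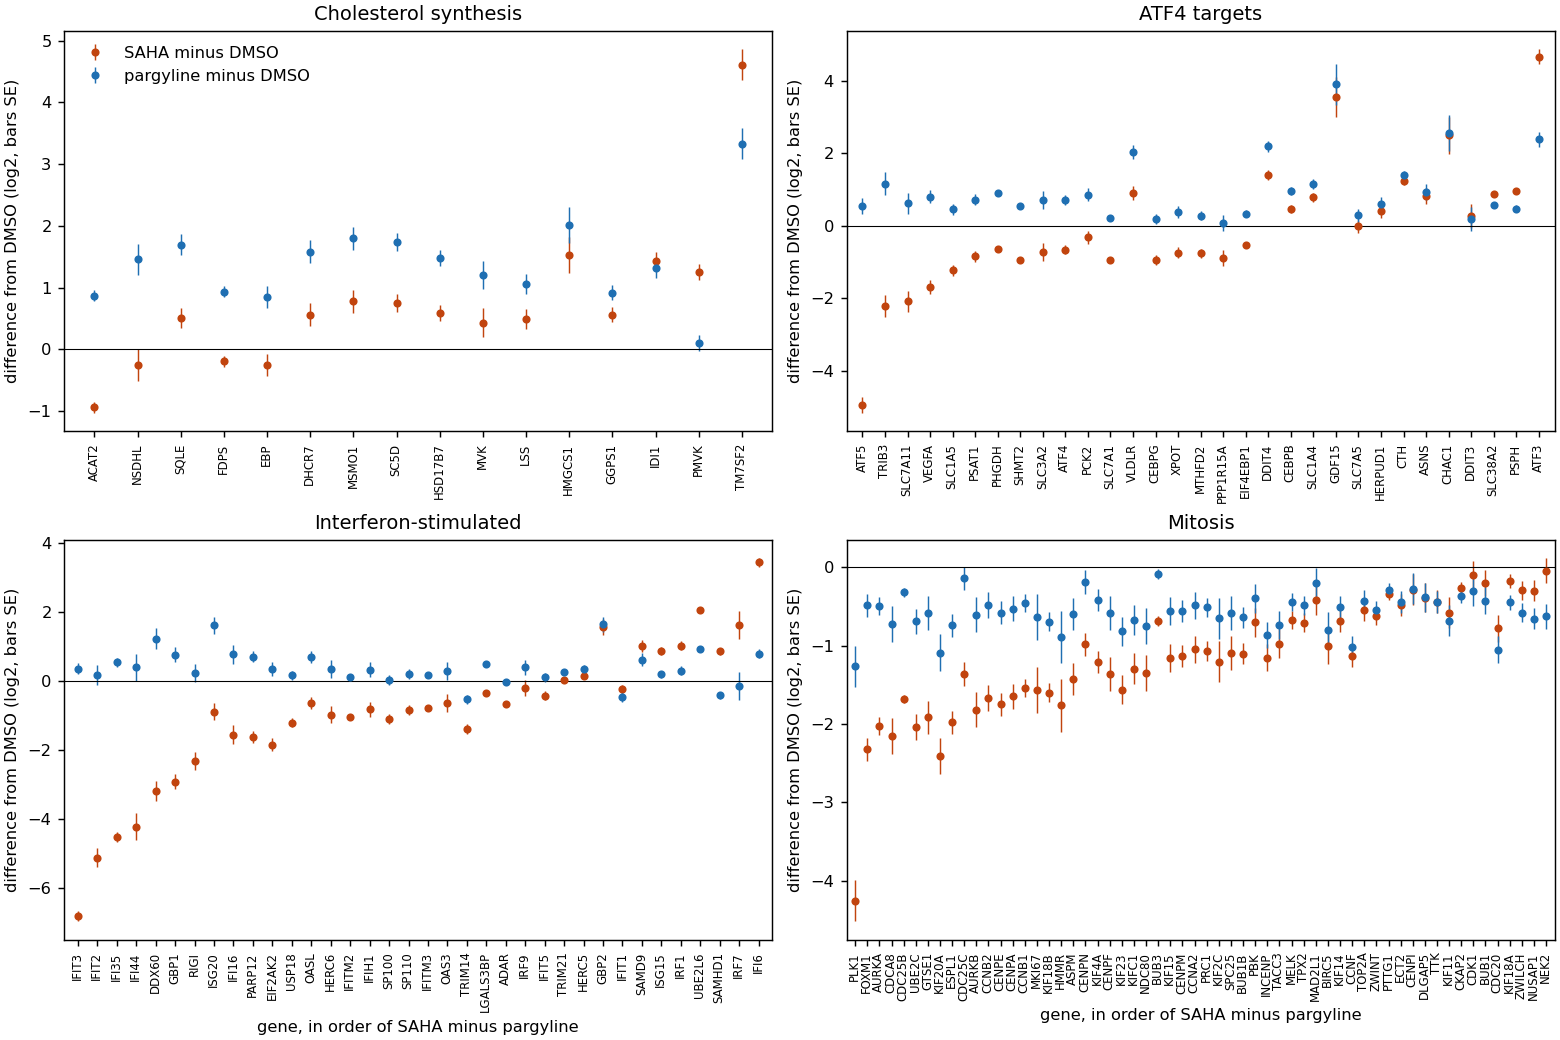
Difference from DMSO (log2, vertical axis, bars standard errors) with SAHA and with pargyline for the members of 4 gene lists whose level exceeds 5 in the DMSO, SAHA or pargyline group, in order of SAHA minus pargyline. Both sets of points share the 3 DMSO arrays. Of the 17 cholesterol synthesis genes measured, 16 of them drawn, 13 were lower with SAHA than with pargyline, and SAHA reaches -6.82 at IFIT3 and -4.26 at PLK1.

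Of 51 oxidative phosphorylation genes 27 were higher with SAHA, 8 lower and 16 did not pass, but the median was only 0.14. SDHA, the flavoprotein of complex II, read 12.25, 12.12 and 11.89 with SAHA and 11.02, 10.93 and 10.97 with pargyline (1.11 ± 0.10). NDUFC1, a complex I subunit, went the other way (-0.93 ± 0.03). Of 26 autophagy genes 15 were higher and 1 lower, and of 43 lysosome genes 21 were higher and 12 lower. ATG4A, a protease that matures the ATG8 proteins, read 10.42, 10.40 and 10.23 with SAHA, 8.27, 8.29 and 8.13 with pargyline and 8.34, 8.47 and 8.37 with DMSO (2.12 ± 0.06, limma adjusted p = 1.03e-08). The lower autophagy gene was ATG13 (-0.71), named after its value was seen, and without the second pargyline array 2 were lower. LAMP3, a lysosomal membrane protein, was 4.75 ± 0.13 higher with SAHA, while GALC, a lysosomal galactosidase, differed by -2.77 ± 0.18.

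Metallothionein and zinc genes were higher with SAHA in 11 of 14 cases and lower in none, with 3 that did not pass and a median of 0.49. Metallothioneins bind zinc and copper, and MTF1 is the zinc sensor that turns them on. MTF1 read 9.06, 8.95 and 8.90 with SAHA, 7.39, 7.56 and 7.46 with pargyline and 7.31, 7.70 and 7.36 with DMSO, and was 1.50 ± 0.09 higher. MT1F was 1.29 ± 0.09 higher and SLC30A1, a zinc exporter, 0.86 ± 0.06. Against DMSO 9 of the 14 rose with SAHA (23% of all genes), and with pargyline none passed (15.9% of all genes). The metallothionein genes are near-identical in sequence, so their probe sets may read one another and are not independent. When the probe sets of each gene were averaged, 1 of the list was lower.

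Hypoxia and oxidative stress lists held genes of both directions. Of 43 hypoxia and glycolysis genes 21 were lower with SAHA and 10 higher (median -0.15), and against DMSO 27 rose with pargyline (8.48% of all genes) and 18 with SAHA (23%). VEGFA, the angiogenic growth factor, read 9.12, 9.23 and 9.62 with SAHA, 11.51, 12.08 and 11.89 with pargyline and 10.75, 11.06 and 11.23 with DMSO, with the vehicle between the drugs (-2.51 ± 0.19). LOX, lysyl oxidase, differed by -2.79 ± 0.20, and SLC2A3, a glucose transporter, rose with both drugs and was 2.79 ± 0.15 higher with SAHA. Of 42 NRF2 and oxidative stress genes 16 were lower and 10 higher. KEAP1, which holds NRF2 back, read 8.37, 8.37 and 8.04 with SAHA and 10.73, 10.42 and 10.47 with pargyline (-2.28 ± 0.23). AKR1C1 rose by 2.51 with pargyline, did not pass with SAHA against DMSO (0.66), and differed by -1.86 ± 0.25, whereas its relative AKR1C3 rose with both.

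Immediate early genes and their feedback parted. Of 42, 21 were higher with SAHA, 10 lower and 11 did not pass (median 0.35). NR4A2, an orphan nuclear receptor, read 8.69, 8.79 and 9.03 with SAHA, 6.38, 6.11 and 5.99 with pargyline and 3.68, 3.43 and 4.63 with DMSO. Both drugs were above the vehicle and SAHA was the higher (2.68 ± 0.26). ZFP36, which destabilizes cytokine mRNAs, and DUSP5, a phosphatase of ERK, were 3.20 ± 0.30 and 2.01 ± 0.05 higher with SAHA. SPRY4, an inhibitor of receptor tyrosine kinase signalling, differed by -1.93 ± 0.26. Clock genes parted as well: of 19, 5 were higher with SAHA, 6 lower and 8 did not pass. Their median was 0.02, as over all genes, and 57.9% passed, against 46.2% of all genes. BMAL1, the positive arm of the clock, was 3.11 ± 0.24 higher with SAHA, CRY1, of the negative arm, 1.58 ± 0.14, and NPAS2 differed by -2.08 ± 0.39.

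Genes of adhesion and of the surface of this cell line went both ways. Of 29 integrins and adaptors 12 were lower and 6 higher with a median of -0.01 (3 higher without the third SAHA or the third pargyline array). ITGB4, the integrin of hemidesmosomes, read 5.96, 6.02 and 5.94 with SAHA and 9.38, 8.92 and 9.66 with pargyline (-3.35 ± 0.27). PLAUR, the receptor of urokinase, read 7.22, 7.33 and 8.10 with SAHA, 11.61, 11.71 and 11.56 with pargyline and 11.09, 11.13 and 10.90 with DMSO (-4.07 ± 0.21). CD44, the hyaluronan receptor, differed by -2.23 ± 0.14, MSN, moesin, by -1.39 ± 0.07 and CAV1, caveolin, by -1.19 ± 0.11. Of the 12 line markers 6 were lower and 2 higher with SAHA, and 1 was higher without the first or the third SAHA array. Luminal breast genes were split: 8 of 26 were higher with SAHA, 7 lower and 11 did not pass (median 0.01). Their passing share was 57.7%, against 46.2% of all genes. Among them ERBB3, a receptor of neuregulins, was 4.55 ± 0.12 higher and GATA3 and ERBB2 differed by -3.15 ± 0.26 and -3.02 ± 0.16. ESR1, the estrogen receptor, stayed near 3.1 in every group. The apoptosis list was split, with 9 of 34 genes higher, 12 lower and 13 that did not pass (median 0.01). CASP4, an inflammatory caspase, differed by -5.28 ± 0.28 and BID, which links death receptors to mitochondria, by -3.33 ± 0.21. CFLAR differed by -2.07, while CASP9 and HTRA2 were 1.10 and 1.03 higher with SAHA.

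Lists of genes that are usually silent in breast cells held few members above the median level. The shares that passed were 30.8% of the neuronal, 23.1% of the germ cell and 35.7% of the histone list, against 46.2% of all genes. Among all genes 23.4% were higher and 22.7% lower, and of those below the median level 20.3% passed. Of 39 neuronal and secretory genes 10 were higher with SAHA, 2 lower and 27 did not pass, and the median difference was 0.03. SYT11, a synaptotagmin, read 7.80, 8.07 and 7.63 with SAHA, 2.55, 2.58 and 2.53 with pargyline and 2.56, 2.58 and 2.57 with DMSO, so SAHA was above both, and the combination mean was 7.91 (5.28 ± 0.13), and MAP2, a microtubule protein of dendrites, differed by 4.65 ± 0.16. STX1A (-2.09) and GAD1 (-2.02), named after their values were seen, were the 2 lower ones. Of 26 germ cell genes 5 were higher and 1 lower. MAGEB2, a cancer-testis antigen, was 5.37 ± 0.22 and TEX14, of intercellular bridges in germ cells, 4.92 ± 0.21 higher, and MAGEC1 differed by -1.28 ± 0.12. Of 42 histone genes 13 were higher, 2 lower and 27 did not pass. H2BC5 read 10.85, 10.99 and 10.66 with SAHA, 7.65, 7.87 and 7.84 with pargyline and 7.65, 7.97 and 8.02 with DMSO (3.05 ± 0.18). The 2 lower histone genes, H2AZ1 and MACROH2A1, named afterwards, differed by -0.28 and -0.52. That count was 1 when any SAHA, pargyline or DMSO array was left out except the first pargyline array. Histone genes are near-identical too, so single members are uncertain. CORO1A was the 1 of 19 measured leukocyte genes that passed (2 without the second pargyline array), and the defining marker PTPRC read 2.54 with SAHA and 2.52 with pargyline.

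Promoter letters were also counted in the genes that were higher and lower. The NF-Y box CCAAT stood in 40.2% of 2345 promoters of genes higher with SAHA, in 31.3% of 2300 promoters of lower genes and in 35.6% of all. The GC box CCGCCC stood in 72.4%, 66.2% and 60.6%, and in 52.3% of promoters of genes that did not pass. The median GC content was 66% for higher, 65.2% for lower and 61.6% for genes that did not pass, so that base composition differed beside the GC box, and its part was not tested. For the ATF4 site, searched as TGATGNAA, 5 of 30 promoters of ATF4 targets held it (16.7%, against 1.98% of all), and of those 5 genes ATF3 was higher and the other 4 did not pass, among them ASNS (-0.12) and CHAC1 (-0.06). Over any RefSeq start 7 held it (23.3%, against 3.01% of all), with CEBPG (-1.12) and SLC1A5 (-1.69) added, both lower with SAHA. The sterol response element core, TCACNCCAC, stood in 0.816% of all promoters and in none of 15 of the cholesterol list, which says only that these letters are not in that window. The E-box CACGTG (8.35% of all promoters, 8.78% of higher and 11% of lower genes) and the antioxidant response element core TGANNNNGC (35.4%, 35.0% and 36.1%) complete the motifs searched.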

How the data were processed

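RNA of the 12 samples was labelled with biotin and read on Affymetrix arrays. Per the submitters' processing notes the deposited values were made with RMA, version not given, and are log2 intensities per probe set. Whether the 12 arrays were normalized together is not given in the sources used here. The deposited log2 values were used without further scaling or filter. Of 22277 probe sets, 62 were controls, 19064 were listed for 1 gene, 1043 for several and 2108 for none. Symbols were updated by identifier from the RefSeq table of GRCh38.p14 (11954 of 11963 genes matched). Of the genes, 4310 had more than 1 probe set, and the one with the highest mean was used.

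A mean per group was fitted to all 12 arrays (8 residual degrees of freedom) with lmFit and eBayes in limma 3.58.1 under R 4.3.3. Errors of differences are standard errors of this fit, and adjusted p-values are Benjamini-Hochberg over 11963 genes, two-sided. Array quality was tested with exact two-sided permutation tests. Array number limits the precision. In simulated data in which only a small share of the 11963 genes was changed, 93% of genes changed 2-fold were recovered. Of those changed by 0.5 (log2), 62% were recovered, and there were 9 false calls. In the real comparison 46.2% of genes passed, which alters the adjustment, so these shares do not give its recovery.

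The members and the 42 lists (1384 entries, 1227 measured) were chosen with earlier results of these data known. Named genes are the 12 largest differences each way among genes that passed, did not overlap and had a group mean above 7.06, the 8 each way of opposite direction against DMSO, the 6 each way shared, up to 5 per list, and the drug target genes with RCOR1 and CDKN1A. Exceptions are said to be named after their values were seen. Motif counts are descriptions with no test, and counts over any start were added after seeing the data. Alternatives were quantile normalization, centring, filters on dim genes, other probe set rules, array weights, a replicate block, a robust prior with a trend, the 6 arrays alone, other thresholds and leaving out each SAHA, pargyline or DMSO array.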

Additional observations from a re-analysis of the deposited data

How the results depend on the processing

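The counts of 2803 genes higher and 2718 lower with SAHA kept their size within 1.5 times under all alternatives except the 2-fold threshold, which left 1009 higher and 1060 lower. Leaving out each SAHA, pargyline or DMSO array in turn gave 2518 to 2804 higher and 2529 to 2712 lower. The arrays with both drugs were always kept. Centring each array on its median gave 2868 and 2587, quantile normalization 2878 and 2648, and the 6 arrays alone 2574 and 2570. Of 5521 genes that passed, 5028 passed in the same direction with the 6 arrays alone and none in the other. When a gene's probe sets were averaged 4 passed in the other direction, and among named genes LPCAT3 turned to -0.10 (adjusted p = 0.462 in limma). Some pairing by replicate number was seen between SAHA and pargyline arrays. Deviations of equally numbered arrays correlated at 0.28, 0.12 and 0.09. Against differently numbered pargyline arrays the first SAHA array gave -0.27 and -0.02, and the second -0.04 and -0.10. The third gave -0.20 with the first pargyline array and 0.14 with the second, above its equally numbered pair. The main fit did not pair the arrays, and whether they share a source was not tested. A fit with replicate number as a block gave 2917 higher and 2829 lower, and 1 of 221 named genes, NFX1, passed only there (-0.22, adjusted p = 0.0452). Among the lists described, medians of at least 0.1 in size kept their sign under quantile normalization and centring. Genes below the median level, many near 2, have compressed differences, and 104 named genes had 170 further probe sets, of which 146 had the same sign.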

Other observations

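Probe sets that are listed for no gene or for several were left out of the comparison. Of 2108 probe sets with no gene, 216 were higher and 201 lower with SAHA than with pargyline (19.8% passed in limma's test, adjusted over these probe sets). Of 1043 listed for several genes, 195 were higher and 222 lower (40.0%). At least 2-fold differences were found in 95 higher and 65 lower of the former and in 61 and 76 of the latter.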
